A study of Mus musculus with 18 samples.

Results

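The epithelial alarmins are cytokines that barrier cells release on damage or contact with allergen, and 6 genes of this system were examined. They were the alarmins Il33 and Tslp, the IL-33 receptor chains Il1rl1 and Il1rap, the TSLP receptor chain Crlf2 and the IL-25 receptor chain Il17rb. The genes were listed by name, and each was read through the probe set with the highest mean among those annotated to that gene alone. A probe set of this kind was found for 5 of the 6, out of 18194 genes of the array. The annotation used here assigned none to Il1rl1 alone, so the ligand-binding chain of the IL-33 receptor was not analysed here. Il25, the third alarmin, and the partner chains Il7r and Il17ra are given beside them.

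The values come from whole lungs of 18 male mice aged 16 weeks, 9 each of the inbred strains A/J and C57BL/6, with 1 Affymetrix mouse expression array per mouse and 3 mice in each of 6 groups. All 18 mice had been sensitized to ovalbumin, the egg-white allergen, with 3 intraperitoneal doses of 100 µg in alum at weekly intervals, so the PBS groups are sensitized animals and not naive ones. From 7 days later each mouse breathed an aerosol for 30 min on 3 days, of PBS in the PBS groups and of 1% ovalbumin in the ovalbumin and resiquimod groups. Resiquimod mice also received 100 µg of resiquimod (S-28463, R-848), an agonist of Toll-like receptor 7, into the peritoneum 24 h ahead of every challenge. No group had resiquimod without ovalbumin and no vehicle injection is listed, so the drug alone, its action on the allergen response and the injection cannot be told apart. Samples of a group are biological replicates by their labels, and the p-values reflect no more than the spread among these mice.

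IL-33 is held in the nucleus of epithelial, endothelial and stromal cells and binds a receptor of IL1RL1 (ST2) and IL1RAP, which signals through MyD88 and IRAK kinases to NF-kB. TSLP binds CRLF2 together with IL7R and signals through JAK kinases and STAT5, with dendritic cells as a main target. IL-25 binds IL17RB with IL17RA and signals through the adaptor Act1. All 3 act on group 2 innate lymphoid cells (ILC2), mast cells, dendritic cells and T helper 2 (Th2) cells. Of these, ILC2 and Th2 cells are main makers of IL-5 and IL-13.

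Il33 is shown by sequence because it was the member whose level followed the treatments in both strains and because RefSeq gives it 2 start sites. The windows are the 250 bases before each start on the plus strand of GRCm38.p6, at chr19:29924863-29925112 for the first and chr19:29945540-29945789 for the second. Capitals mark a match to the STAT6-type motif, TTC and GAA with 4 bases between them.
Il33 first start: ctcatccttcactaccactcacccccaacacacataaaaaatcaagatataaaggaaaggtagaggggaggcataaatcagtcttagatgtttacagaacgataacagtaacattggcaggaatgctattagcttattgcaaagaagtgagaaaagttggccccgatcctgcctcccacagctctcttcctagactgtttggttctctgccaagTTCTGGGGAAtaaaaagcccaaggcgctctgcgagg
Il33 second start: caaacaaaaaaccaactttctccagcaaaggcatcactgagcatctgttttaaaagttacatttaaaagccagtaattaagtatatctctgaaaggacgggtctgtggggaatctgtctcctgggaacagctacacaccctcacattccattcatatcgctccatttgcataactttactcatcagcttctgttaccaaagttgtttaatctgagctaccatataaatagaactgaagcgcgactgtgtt

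The match in the first window, TTCTGGGGAA, lies from -36 to -27 relative to the start. Among 32851 RefSeq start windows of this length 5.9% hold such a match. The second Il33 window held no match to any of the 6 motifs searched on both strands, which were the STAT6-type motif, the GAS motif TTCNNNGAA, an ISRE-type motif (GAAA, 2 bases, GAAA), an NF-kB-type motif (GGG, 2 bases, TTTCC), the AP-1 motif TGANTCA and the GATA motif AGATAA. Matches of different motifs may overlap. The last 5 of these occur in 7.0%, 3.0%, 1.4%, 6.7% and 10% of the windows, in the order given. The Il33 windows had 4 CpG each and 45.2% and 39.6% GC, where the quartiles over all windows are 2 and 16 CpG (median 6) and 45.2% and 61.2% GC (median 52.4%). The windows of 3 receptor genes lay above these quartiles, with 30 CpG for Il1rap, 24 for Crlf2 and 27 for Il17rb at 74.4%, 71.6% and 72.0% GC. The Il17rb window held TGAGTCA, an AP-1 match, from -104 to -98, and those of Il1rap and Crlf2 held no match. A match is a description of letters, and no binding was measured here.

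Values are log2 expression as the authors deposited them, so a difference of 1 is a doubling. The weakest 25% of all values lay under 3.33, and the arrays hardly resolve falls there. Lung markers were high on every array, with Sftpc of alveolar type II cells between 13.7 and 13.9, Scgb1a1 of club cells between 13.7 and 13.9 and Ager of alveolar type I cells between 13 and 13.5. On 8 of the 18 arrays, at least 1 in every group, transcripts of squamous mucosa were also present: 15 measured markers of a list of 16 averaged 6.92 to 8.16 there and 4.16 to 4.55 on the other 10. Skeletal muscle markers were high on the same 8 arrays and on A/J PBS 3. The members' mean deviation from their group means on these 8 arrays ran from -0.05 for Tslp to 0.01 for Crlf2. Results were recomputed without the 8 arrays, which leaves 1 A/J ovalbumin and 1 C57BL/6 PBS array, each then assumed to vary like the other groups.

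Il33 rose after ovalbumin in both strains and was lower with resiquimod in both strains. In A/J it rose 2.46-fold over PBS, and with resiquimod it was 2.77-fold lower than with ovalbumin alone. In C57BL/6 it rose 1.77-fold and was 2.30-fold lower with resiquimod. In whole lung, fewer cells of a type and less RNA per cell cannot be told apart, and this holds for every value here.

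The 3 A/J PBS lungs read 8.77, 9.23 and 9.23 for Il33 and the 3 A/J ovalbumin lungs 10.14, 10.45 and 10.54. The A/J resiquimod lungs read 9.10, 8.88 and 8.75. All ovalbumin lungs thus stood above all others of the strain, while the PBS and resiquimod lungs overlapped. In C57BL/6 the PBS lungs read 9.22, 8.94 and 9.57 and the ovalbumin lungs 9.76, 10.33 and 10.12. Resiquimod lungs of C57BL/6 read 8.74, 9.02 and 8.85, again below all ovalbumin lungs and overlapping the PBS lungs. By mean, the order ran from A/J ovalbumin (10.37 ± 0.21, SD, n = 3) over C57BL/6 ovalbumin (10.07 ± 0.29) to C57BL/6 PBS (9.24 ± 0.32), A/J PBS (9.07 ± 0.26), A/J resiquimod (8.91 ± 0.18) and C57BL/6 resiquimod (8.87 ± 0.14). The only neighbours in this order whose arrays did not overlap were C57BL/6 ovalbumin and C57BL/6 PBS.

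**Figure D1:**
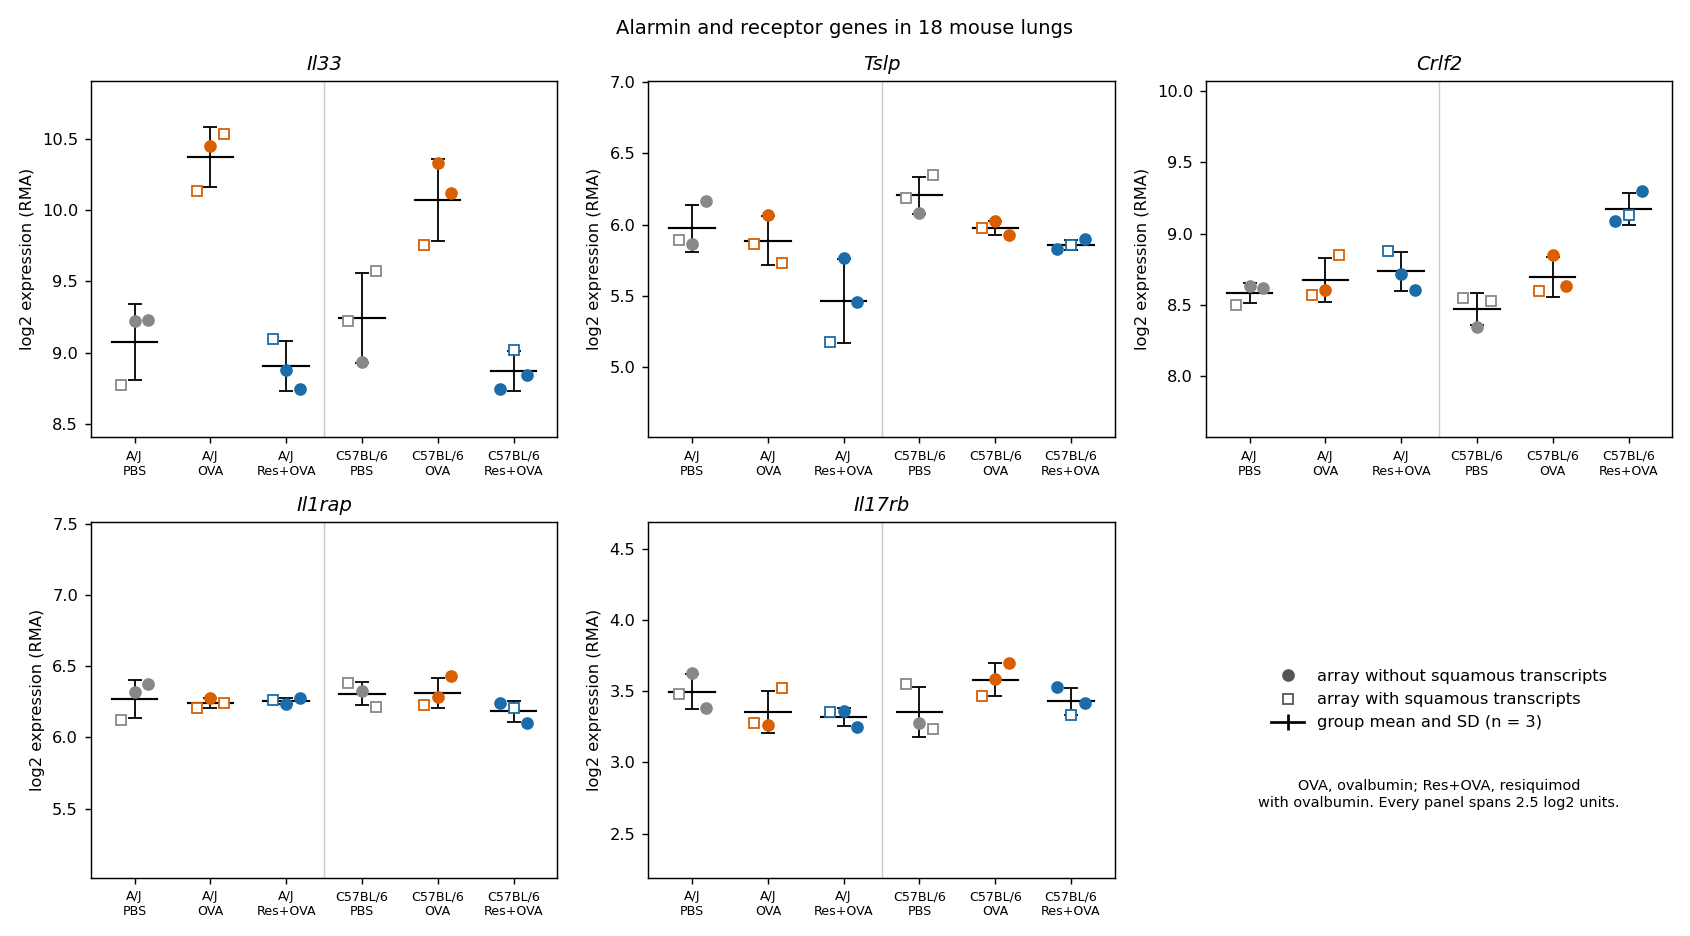
Log2 expression of Il33, Tslp, Crlf2, Il1rap and Il17rb on each of 18 arrays, by strain and treatment, with bars for the group mean and SD (n = 3) and open squares for the 8 arrays with squamous transcripts. Every panel spans the same log2 range: Il33 is high in all 6 ovalbumin lungs, from 9.76 to 10.54, Crlf2 is highest in the C57BL/6 resiquimod lungs, from 9.09 to 9.30, and Il1rap and Il17rb stay within narrow bands.

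The rise of Il33 in A/J was 1.30 ± 0.18 (log2 change ± SE, 95% interval 0.93 to 1.67, limma adjusted p = 3.39e-04). It was the 1 member of 5 called at an adjusted p under 0.05, in a comparison where 4.38% of the 18194 genes were called and 24% had groups that did not overlap. The C57BL/6 rise was 0.83 ± 0.18 (0.45 to 1.2, adjusted p = 0.0280), again the 1 member called, with 1.59% of genes called and 17.8% without overlap. The C57BL/6 call was lost when only the 2 groups compared were fitted (adjusted p = 0.132), in a fit with trended, robust variances (adjusted p = 0.0607) and without C57BL/6 PBS 1, PBS 2, ovalbumin 2 or ovalbumin 3, at adjusted p from 0.0986 to 0.169. The change then still read 0.67 to 0.82, and without the arrays with squamous transcripts it was 1.29.

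With resiquimod, Il33 fell by 1.47 ± 0.18 in A/J (adjusted p = 5.55e-05) and by 1.2 ± 0.18 in C57BL/6 (adjusted p = 3.29e-04) against the ovalbumin lungs. Both calls held in all 28 alternative settings, with changes from -1.64 to -1.39 in A/J and from -1.43 to -1.07 in C57BL/6. In A/J Il33 was the 1 member called where 9.77% of genes were called and 25.8% had groups without overlap. In C57BL/6 Il33 and Crlf2 were the 2 members called, where 10.4% of genes were called and 30.6% had groups without overlap. Rise and fall are measured against the same ovalbumin arrays and are not independent of each other.

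Set directly against PBS, the resiquimod lungs differed in Il33 by -0.17 ± 0.18 in A/J (95% interval -0.54 to 0.20, adjusted p = 0.672) and by -0.38 ± 0.18 in C57BL/6 (-0.75 to -0.003, adjusted p = 0.202). Neither was called, and the intervals leave room for a level up to 0.54 below PBS in A/J and 0.75 below it in C57BL/6. The ovalbumin effect differed between strains by 0.47 ± 0.25 (adjusted p = 0.934) and the resiquimod effect by -0.27 ± 0.25 (adjusted p = 0.708), neither called.

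Several cell type lists moved along with Il33. With ovalbumin 8 of 8 goblet cell markers rose in A/J and 6 of 8 in C57BL/6, and 7 of 8 fell with resiquimod in either strain. Their mean per array ran from 5.36 to 5.96 in A/J PBS, from 8.27 to 8.34 in A/J ovalbumin and from 6.45 to 7.0 in A/J resiquimod lungs, with C57BL/6 at 5.46 to 5.64, 7.96 to 8.08 and 6.19 to 7.01. Of 7 alternatively activated macrophage markers 6 rose in each strain, and 5 in A/J and 4 in C57BL/6 fell with resiquimod. Without the arrays with squamous transcripts the goblet counts were 4 and 6 rising and 3 and 5 falling, and the macrophage counts 5 and 5 rising and 4 and 4 falling. The macrophage list averaged 9.20 to 9.66 in the ovalbumin lungs of both strains and 6.73 to 7.71 in all others. Their part in the Il33 result was not tested.

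Markers of cells known to hold IL-33 were counted too. Of 9 measured alveolar type II markers 2 rose and 1 fell with ovalbumin in A/J and none was called in C57BL/6, and their mean lay between 11.3 and 11.7 on all 18 arrays. With resiquimod none was called in A/J and 2 fell in C57BL/6, where the 3 resiquimod lungs (11.31 to 11.44) lay below the 3 ovalbumin lungs (11.45 to 11.56) in that mean. Of 8 endothelial markers 1 fell with ovalbumin in A/J and none was called in C57BL/6. With resiquimod 3 endothelial markers rose in each strain and 1 fell in A/J, where none rose without A/J resiquimod 3. Of 8 fibroblast markers 2 rose and 1 fell in A/J and none was called in C57BL/6. With resiquimod 5 fibroblast markers fell and 1 rose in A/J and 3 fell in C57BL/6, their mean per array going from 9.46 to 9.96 down to 8.48 to 9.09 in A/J and from 9.62 to 9.93 down to 9.07 to 9.37 in C57BL/6. The A/J counts became 3 falling and 0 rising without A/J ovalbumin 1, and likewise without the arrays with squamous transcripts. The part of type II cell, endothelial and fibroblast transcripts in the Il33 result was not tested.

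Tslp, the alarmin that instructs dendritic cells, did not share the ovalbumin response of Il33. Its changes with ovalbumin were -0.09 ± 0.13 in A/J and -0.23 ± 0.13 in C57BL/6, neither called. It was lowest in A/J lungs given resiquimod, 1.42-fold under A/J PBS.

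A/J PBS lungs read 5.90, 5.86 and 6.16 for Tslp and A/J ovalbumin lungs 5.87, 6.07 and 5.73. A/J resiquimod lungs read 5.18, 5.77 and 5.46, all under the PBS lungs and with 1 of them inside the range of the ovalbumin lungs. In C57BL/6 the PBS lungs read 6.19, 6.08 and 6.35, the ovalbumin lungs 5.98, 6.03 and 5.93 and the resiquimod lungs 5.83, 5.86 and 5.90. The 3 C57BL/6 groups did not overlap, PBS being highest and resiquimod lowest, but by steps of 0.23 and 0.12 that were not called. PBS and ovalbumin lungs of this strain did not overlap for 17.8% of genes, and ovalbumin and resiquimod lungs for 30.6%. By mean, C57BL/6 PBS (6.21 ± 0.13, SD, n = 3) was highest and A/J resiquimod (5.47 ± 0.29) lowest, and neither overlapped its immediate neighbour, C57BL/6 ovalbumin and C57BL/6 resiquimod. C57BL/6 PBS did overlap A/J PBS, and A/J resiquimod overlapped A/J ovalbumin. The 4 groups in the middle overlapped with their neighbours.

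The difference of Tslp between resiquimod and PBS in A/J was -0.51 ± 0.13 (95% interval -0.77 to -0.24, adjusted p = 0.0176), the 1 member called of 5, with 11.1% of genes called and 29.8% of genes without overlap. This call was lost without A/J PBS 3 (-0.41, adjusted p = 0.101), without A/J resiquimod 1 (-0.36, adjusted p = 0.0891), without the arrays with squamous transcripts (-0.40, adjusted p = 0.18) and in the fit of the 2 groups alone (adjusted p = 0.116). A/J resiquimod 1, the lowest of all 18 arrays for Tslp, was one of those with squamous transcripts.

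Against ovalbumin, Tslp in A/J differed with resiquimod by -0.42 ± 0.13 (adjusted p = 0.0533), not called, although 6 of 28 alternative settings called it. In C57BL/6 the resiquimod lungs differed by -0.12 ± 0.13 from ovalbumin (adjusted p = 0.677) and by -0.35 ± 0.13 from PBS (adjusted p = 0.0868), the latter called in 4 of 28 settings. The strain difference of the resiquimod effect was -0.30 ± 0.18 (adjusted p = 0.501), not called.

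Il25, the ligand of the Il17rb receptor, stayed at the floor of the arrays, from 2.83 to 3.30 over the 18 lungs. None of its differences between groups was called, the largest being -0.16 ± 0.09 between resiquimod and ovalbumin in C57BL/6 (adjusted p = 0.390). At these levels a change of the transcript in few cells would not be detectable.

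Among the receptor chains, Crlf2 rose with resiquimod in C57BL/6 and not detectably in A/J. It was 1.40-fold higher than with ovalbumin and 1.63-fold higher than with PBS in C57BL/6. The A/J differences were 0.06 ± 0.10 (95% interval -0.15 to 0.27) and 0.15 ± 0.10 (-0.06 to 0.36), neither called.

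C57BL/6 PBS lungs read 8.55, 8.34 and 8.52 for Crlf2, the ovalbumin lungs 8.60, 8.85 and 8.63 and the resiquimod lungs 9.09, 9.13 and 9.30. The 3 resiquimod lungs lay above all other 15 lungs of the study. The ovalbumin lungs lay above the PBS lungs, 2 groups that did not overlap for 17.8% of genes. In A/J the PBS lungs read 8.5, 8.63 and 8.62, the ovalbumin lungs 8.57, 8.61 and 8.85 and the resiquimod lungs 8.88, 8.72 and 8.61. These 3 groups overlapped throughout.

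The C57BL/6 change of Crlf2 with resiquimod against ovalbumin was 0.48 ± 0.10 (0.27 to 0.69, adjusted p = 0.00552). It was called in 27 of 28 alternative settings and lost without the arrays with squamous transcripts, at 0.45 and an adjusted p of 0.0792. Against PBS the change was 0.70 ± 0.10 (0.49 to 0.91, adjusted p = 1.26e-04) and held in all 28 settings. Crlf2 was the 1 member called there, where 16.8% of genes were called and 36.5% had groups without overlap. With ovalbumin alone the change was 0.22 ± 0.10 in C57BL/6 (adjusted p = 0.434), not called. The resiquimod effect differed between strains by -0.42 ± 0.14 (A/J minus C57BL/6, 95% interval -0.72 to -0.12, adjusted p = 0.188), which was not called, so a strain-dependent effect was not established by the test of the difference itself.

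Il7r, the second chain of the TSLP receptor and a chain of the IL-7 receptor, was not called in any of the 11 comparisons, under the settings described or in any of 28 alternatives. Il7r has 2 probe sets, of which the brighter is given. Its level ran from 5.49 to 6.54 over the 18 lungs. The changes with ovalbumin were 0.31 ± 0.16 in A/J and 0.34 ± 0.16 in C57BL/6, and with resiquimod -0.13 ± 0.16 and -0.40 ± 0.16. Crlf2 and Il7r thus gave values of opposite sign with resiquimod in C57BL/6, 0.48 called and -0.40 not called.

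**Figure D2:**
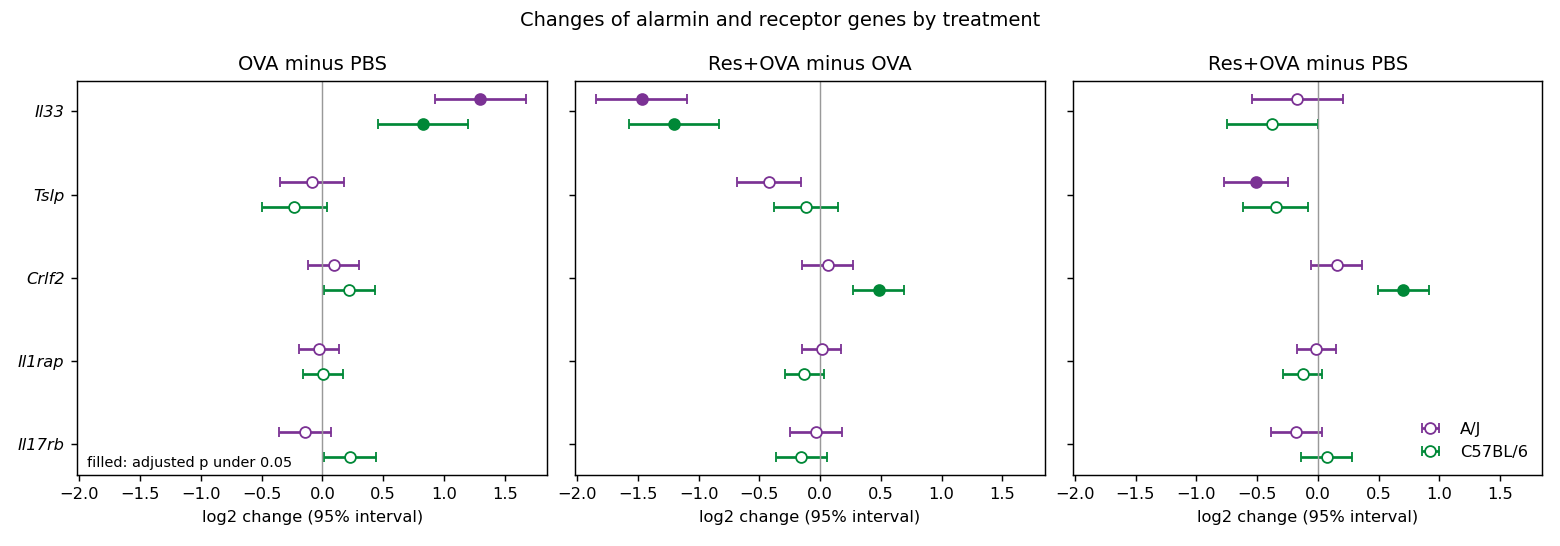
Log2 change with its 95% interval for the 5 measured members in 3 contrasts, A/J in purple and C57BL/6 in green, filled where the adjusted p was under 0.05. Il33 is filled to the right for ovalbumin (1.30 and 0.83) and to the left for resiquimod against ovalbumin (-1.47 and -1.2), and Crlf2 is filled for C57BL/6 alone (0.48 and 0.70).

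Il1rap, the signalling chain that the IL-33 receptor shares with the IL-1 receptor, was not called between any treatments. Its brightest probe set ran from 6.10 to 6.43 over all 18 lungs, a span of 0.33, and none of the 11 comparisons was called. The widest treatment difference of this probe set was -0.13 ± 0.08 between resiquimod and ovalbumin in C57BL/6 (95% interval -0.29 to 0.03, adjusted p = 0.368). For ovalbumin its intervals were -0.19 to 0.13 in A/J and -0.16 to 0.17 in C57BL/6. They bound the change of this probe set and not that of the weaker ones.

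Il1rap has 5 probe sets, and they did not all behave alike. The third in brightness read 3.91, 3.91 and 4.00 in A/J ovalbumin lungs and 3.19, 3.49 and 3.39 in C57BL/6 ovalbumin lungs. In the resiquimod groups it read 3.66, 3.82 and 4.38 in A/J and 3.60, 3.29 and 3.51 in C57BL/6. A/J was higher by 0.58 ± 0.15 with ovalbumin (adjusted p = 0.0168) and by 0.49 ± 0.15 with resiquimod (adjusted p = 0.0322), and by 0.14 ± 0.15 with PBS, not called. With ovalbumin and with resiquimod the strains did not overlap, as for 24.6% and 32.5% of genes. The ovalbumin call was lost without A/J ovalbumin 3 or C57BL/6 ovalbumin 1. The resiquimod call was lost without A/J resiquimod 3, C57BL/6 resiquimod 2 or C57BL/6 resiquimod 3. These levels lie close to the 25th percentile of 3.33, and none of the other 4 probe sets was called in any comparison.

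**Figure D3:**
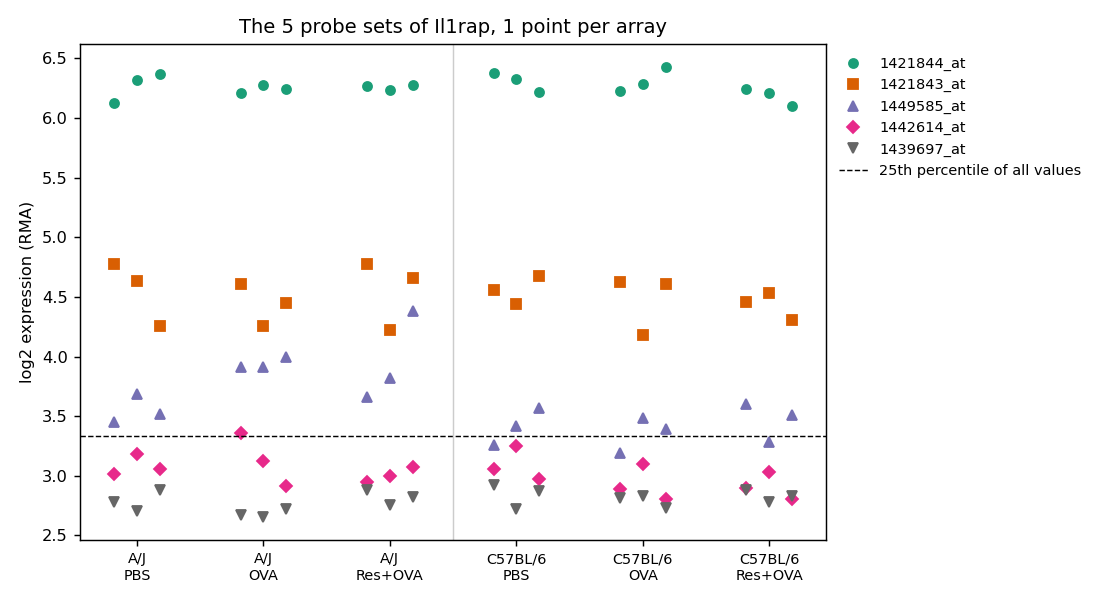
Log2 expression of the 5 probe sets of Il1rap on each of 18 arrays by strain and treatment, with the 25th percentile of all values (3.33) as a dashed line. The brightest probe set stays between 6.10 and 6.43, and the third in brightness is higher in A/J than in C57BL/6 lungs after ovalbumin and after resiquimod.

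Il17rb, the IL-25 binding chain found on ILC2 and Th2 cells, ran from 3.24 to 3.70, at the weak end of the array. No comparison was called. In A/J the PBS lungs read 3.48, 3.63 and 3.38, the ovalbumin lungs 3.28, 3.26 and 3.53 and the resiquimod lungs 3.35, 3.36 and 3.25. In C57BL/6 they read 3.55, 3.28 and 3.24 with PBS, 3.46, 3.59 and 3.70 with ovalbumin and 3.53, 3.34 and 3.42 with resiquimod. Ovalbumin differed from PBS by -0.14 ± 0.10 in A/J and by 0.23 ± 0.10 in C57BL/6, values of opposite sign whose difference was -0.37 ± 0.14 with a limma p of 0.0187 and an adjusted p of 0.831.

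Il17ra, the partner chain that IL-25 shares with IL-17A, rose with resiquimod in C57BL/6. It has 2 probe sets, of which the brighter is given. C57BL/6 resiquimod lungs read 8.35, 8.23 and 8.08 against 7.44, 7.60 and 7.45 with ovalbumin and 7.37, 7.14 and 7.54 with PBS. The change was 0.72 ± 0.14 against ovalbumin (adjusted p = 0.00362) and 0.87 ± 0.14 against PBS (adjusted p = 4.76e-04), each lost only without the arrays with squamous transcripts among 28 settings, at 0.69 (adjusted p = 0.124) and 1.08 (adjusted p = 0.0598). In A/J the resiquimod lungs read 7.68, 8.06 and 7.39 against 7.31, 7.30 and 7.16 with ovalbumin, a difference of 0.45 ± 0.14 without overlap that was not called (adjusted p = 0.0644). In this comparison 25.8% of genes had groups without overlap. The resiquimod effect on Il17ra differed between strains by -0.27 ± 0.20 (adjusted p = 0.620), not called.

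Crlf2 and Il17ra both rose in C57BL/6 lungs in which markers of other cells moved too. All 7 measured NK cell markers rose with resiquimod in either strain, from means of 5.09 to 5.25 to 8.15 to 8.44 in C57BL/6 and from 4.48 to 4.58 to 7.16 to 7.61 in A/J. Of 6 measured neutrophil markers 5 rose in C57BL/6 and 4 in A/J, from means of 6.60 to 7.23 to 7.82 to 8.02 and from 6.18 to 6.20 to 7.22 to 8.24. The C57BL/6 neutrophil count was 1 without C57BL/6 ovalbumin 1, and without the arrays with squamous transcripts it was 0, with 1 in A/J. NK markers then rose for 7 of 7 in C57BL/6 and 6 of 7 in A/J. Of 7 T cell markers 1 rose in C57BL/6 and 1 fell in A/J. The part of these cells in the receptor results was not tested.

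Between the strains, no member differed in the PBS lungs, where 9.01% of genes were called. At an unadjusted p under 0.05 in limma's test 0 of 5 members passed, as did 20.3% of all genes. With ovalbumin 0 of 5 were called against 9.27% of genes, and 1 of 5 had an unadjusted p under 0.05, Il17rb at -0.23 ± 0.10, as did 20.8% of all genes. These counts of 0 held in all 28 alternative settings. In the resiquimod lungs 2 of 5 were called where 16.5% of genes were called. Crlf2 was 0.44 ± 0.10 lower in A/J than in C57BL/6, given as -0.44 with an adjusted p of 0.00556 that held in all 28 settings. Tslp differed by -0.39 ± 0.13 (adjusted p = 0.0461) and kept its call in 12 of 28 settings, reading -0.25 with an adjusted p of 0.211 without A/J resiquimod 1. For both genes the strains did not overlap in the resiquimod lungs, as for 32.5% of genes. The test of a strain difference in effect called 0 members for ovalbumin, where 0.0605% of genes were called, and 0 for resiquimod, where 1.24% were. At an unadjusted p under 0.05 it found 1 of 5 for each, Il17rb and Crlf2, against 5.22% and 15.3% of all genes.

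The members varied largely apart from one another. Il1rap spanned only 0.33 over the arrays and Il17rb lay near the floor, so a low r with either tells little. Over the 18 arrays Pearson r between pairs of members ran from -0.42 for Il1rap with Crlf2 to 0.33 for Il1rap with Il17rb, and it was 0.23 for Il33 with Tslp. Within groups, after each group mean was taken off, Il33 and Crlf2 varied together at r = 0.73, although over all 18 arrays they gave -0.16. These points share arrays, tissue pieces and normalization, and the values are a description.

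Genes with the pattern most like that of Il33, by Pearson r over 18 arrays, were the eosinophil attractant Ccl24 (0.96), the transcription factor Bhlhe40 (0.96), the smooth muscle actin Actg2 (0.94), the tropomyosin Tpm2 (0.93) and the glucose transporter Slc5a1 (0.93). Ccl24 read 7.05 to 7.62 in A/J ovalbumin and 6.32 to 6.91 in C57BL/6 ovalbumin lungs and 4.36 to 4.92 in all others. Bhlhe40 read 8.98 to 9.26 in the ovalbumin lungs of both strains and 8.19 to 8.75 in the others. Within groups, with the group means taken off, r fell to 0.75 for Ccl24, 0.70 for Bhlhe40, 0.42 for Actg2, 0.49 for Tpm2 and 0.46 for Slc5a1. The 18 points share their arrays and their treatment groups.

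**Figure D4:**
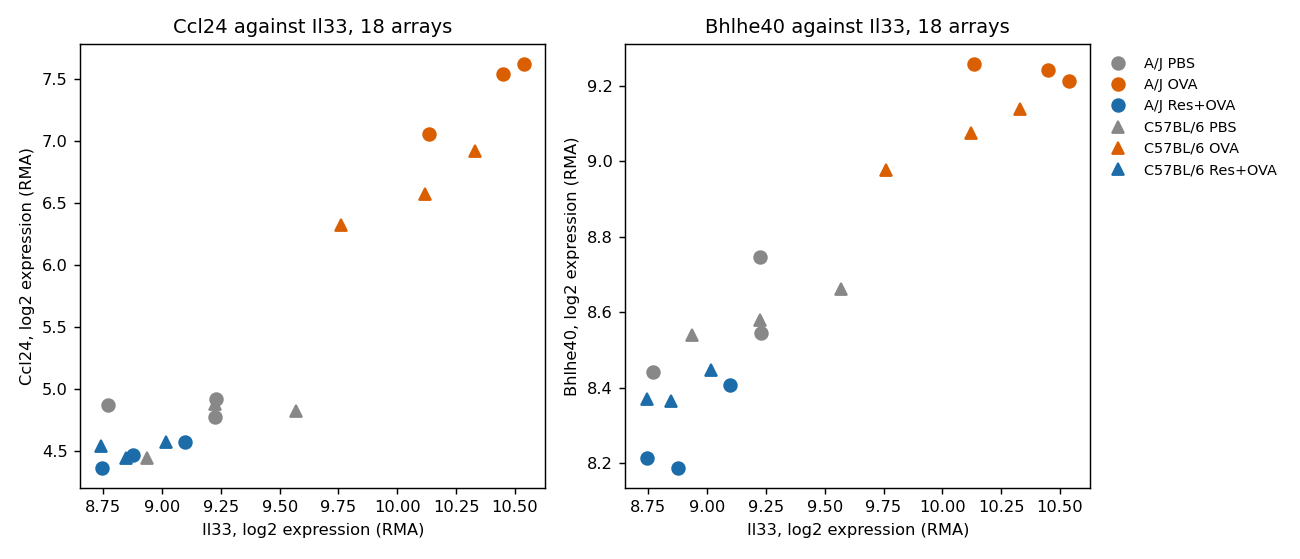
Log2 expression of Ccl24 and of Bhlhe40 against Il33 on 18 arrays, circles for A/J and triangles for C57BL/6. The 6 ovalbumin lungs lie to the upper right in both panels, with Ccl24 from 6.32 to 7.62 and Bhlhe40 from 8.98 to 9.26, apart from the 12 PBS and resiquimod lungs.

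For Tslp the 3 most alike genes were Tspan6 (0.87), Clstn1 (0.85) and 2510009E07Rik (0.85). For Crlf2 they were Haspin (0.94), the DNA methyltransferase Dnmt1 (0.92) and the exosome subunit Exosc8 (0.92), Haspin averaging 3.37 and so near the floor of the array. For Il1rap they were Aldh5a1 (0.81), Wdpcp (0.78) and Xkr6 (0.78), and for Il17rb Pou5f2 (0.79), Htr4 (0.78) and M6pr (0.74). Htr4 averaged 2.96, at the floor. All these genes, like those for Il33, were picked as the highest among 18194 genes over 18 arrays. High r values can arise from such picking alone, and no p is given.

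The genes that act around the alarmins were counted by list. Over all 18194 genes, 3.2% rose and 1.18% fell with ovalbumin in A/J and 1.44% rose and 0.154% fell in C57BL/6. With resiquimod against ovalbumin 4.38% rose and 5.39% fell in A/J and 5.8% rose and 4.59% fell in C57BL/6. Of 14 measured adaptors, kinases and inhibitors of IL-33 receptor signalling, 1 rose with ovalbumin in A/J and none was called in C57BL/6, with medians of -0.01 and 0.07 beside 0.00 over all genes in either strain. The riser was Rnf128, the ubiquitin ligase GRAIL, at 0.41 ± 0.11, which kept its call in 9 of 28 settings. With resiquimod 2 rose in A/J, and 1 rose and 1 fell in C57BL/6. Irak3, an inhibitor of IRAK signalling, rose by 0.97 ± 0.19 in A/J (called in 26 of 28 settings) and by 0.64 ± 0.19 in C57BL/6 (12 of 28), and Irak2, a kinase of the pathway, by 0.31 ± 0.09 in A/J (12 of 28). Rnf128 fell by 0.86 ± 0.11 in C57BL/6, in all 28 settings, and differed by 0.06 in A/J.

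Of 12 measured genes of TSLP receptor signalling, 3 rose with ovalbumin in A/J and 1 in C57BL/6, with medians of 0.25 and 0.22. Those were feedback inhibitors of cytokine receptors. Cish, a target of STAT5, rose by 1.26 ± 0.15 in A/J and held in all 28 settings, and read 0.54 in C57BL/6, not called. Socs1 rose by 0.79 ± 0.12 and 0.73 ± 0.12 and Socs3 by 0.91 ± 0.21 in A/J, Socs3 with its call lost when any 1 A/J PBS or ovalbumin array was left out. With resiquimod 2 of the 12 fell in A/J and 4 fell and 2 rose in C57BL/6. Cish fell by 1.08 ± 0.15 and 0.55 ± 0.15 and Socs1 by 0.71 ± 0.12 and 0.48 ± 0.12, while the kinase Jak3 and the survival factor Bcl2 rose by 0.45 ± 0.13 and 0.40 ± 0.10 in C57BL/6. In C57BL/6 these counts ran from 0 to 4 falling and from 0 to 2 rising when single arrays were left out, the fewest falling without C57BL/6 ovalbumin 2. Without the arrays with squamous transcripts 1 rose with ovalbumin in A/J and none in C57BL/6, and 1 fell with resiquimod in each strain. The genes answer to many cytokines besides TSLP.

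Of 12 measured IL-25 and IL-17 family genes, 1 fell with ovalbumin in A/J (Il17rd, -0.29 ± 0.07, called in 17 of 28 settings) and none was called in C57BL/6. With resiquimod the NF-kB cofactor Nfkbiz rose by 0.89 ± 0.18 in A/J and 0.65 ± 0.18 in C57BL/6, the latter lost without any 1 of the 6 arrays compared. Il17d fell by 0.46 ± 0.11 in A/J, from a mean of 3.73 to 3.27, across the 25th percentile of 3.33. Il17ra was the second riser in C57BL/6. The list medians lay between -0.04 and 0.01 in these 4 comparisons.

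Among 15 other IL-1 family genes the receptor chain Il18rap, which pairs with Il18r1 for IL-18, rose with resiquimod by 0.84 ± 0.08 in A/J and 1.33 ± 0.08 in C57BL/6, in all 28 settings each. Il1r1, the IL-1 receptor that also pairs with Il1rap, fell by 0.42 ± 0.08 and 0.57 ± 0.08. The decoy receptor Il1r2 rose by 1.00 ± 0.23 in A/J, and Casp1 and the IL-18 antagonist Il18bp rose by 0.88 ± 0.14 and 0.65 ± 0.11 in C57BL/6. In all, 2 rose and 1 fell in A/J and 3 rose and 1 fell in C57BL/6, and with ovalbumin 2 rose and 1 fell in A/J and 1 rose in C57BL/6. The ovalbumin risers were the IL-1 receptor antagonist Il1rn (1.05 ± 0.18) and Il18rap (0.36 ± 0.08) in A/J and Il18bp (0.52 ± 0.11) in C57BL/6, and Il18r1 fell in A/J by 0.45 ± 0.10.

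Of 6 measured proteases that cleave IL-33, none was called with ovalbumin in either strain. With resiquimod 1 rose in each strain, Prtn3 in A/J (0.98 ± 0.28, called in 10 of 28 settings) and Ctsg in C57BL/6 (0.48 ± 0.09, called in 27 of 28), both known as neutrophil granule proteases. Ctsg averaged 3.19 in C57BL/6 ovalbumin and 3.67 in C57BL/6 resiquimod lungs, close to the 25th percentile of 3.33. Of 11 other danger signals 3 rose with ovalbumin in A/J, the lectin Lgals3 (0.75 ± 0.08), the heat shock protein Hspa1a (0.67 ± 0.12) and the chaperone Calr (0.44 ± 0.09), and 1 in C57BL/6, Lgals3 (0.33 ± 0.08, called in 6 of 28 settings). With resiquimod the neutrophil proteins S100a8 and S100a9 rose by 2.39 ± 0.38 and 2.26 ± 0.40 in A/J and by 1.35 ± 0.38 and 1.38 ± 0.40 in C57BL/6, where they were called in 21 and 15 of 28 settings. Camp, another granule protein of neutrophils, rose by 0.94 ± 0.24 in C57BL/6. Calr fell by 0.53 ± 0.09 and 0.33 ± 0.09, and Hspa1a fell by 0.52 ± 0.12 in A/J. The neutrophil marker list, which also holds S100a8 and S100a9, rose beside them as given above, and its part was not tested. Without the arrays with squamous transcripts the calls of the danger signal list were lost in both strains. With ovalbumin 10 of its 11 genes in A/J and 7 in C57BL/6 then kept their sign, and with resiquimod 9 in each strain.

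Of 10 measured sensors and enzymes upstream of alarmin release, Tlr4, the lipopolysaccharide receptor, rose with ovalbumin in A/J (0.50 ± 0.11, called in 23 of 28 settings). With resiquimod the oxidase Duox1 fell in A/J by 0.57 ± 0.15 (21 of 28). Its mean went from 3.77 to 3.20, across the 25th percentile of 3.33. In C57BL/6 the growth factor receptor Egfr fell by 0.63 ± 0.13, the ATP-gated channel P2rx7 rose by 0.44 ± 0.09 and the peptidoglycan sensor Nod1 rose by 0.28 ± 0.07.

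Of 17 measured ILC2 and Th2 genes 2 rose with ovalbumin in A/J, Il13 (0.43 ± 0.11) and Il4 (0.43 ± 0.11), and none was called in C57BL/6, with medians of 0.00 and 0.07. Il13 kept its call in 16 of 28 settings and Il4 in 10 of 27. Il13 averaged 3.51 in A/J PBS and 3.94 in A/J ovalbumin lungs, and Il4 3.03 and 3.45, close to the 25th percentile of 3.33. With resiquimod Il4 fell by 0.49 ± 0.11 in A/J, to a mean of 2.97 under that percentile. Klrg1 rose by 1.89 ± 0.15 in A/J and 2.5 ± 0.15 in C57BL/6. KLRG1 is a receptor of mature NK and effector T cells as well as of ILC2, and the NK cell markers rose beside it. Of 12 measured mast cell and basophil markers none was called with ovalbumin in either strain, their mean per array lying between 4.70 and 5.09 throughout. Basophil protease Mcpt8 (2.97 to 3.53) and the IgE receptor chain Ms4a2 (2.71 to 3.08) were at the floor. Cpa3 of the same list lay higher, from 3.48 to 5.24 with a median of 3.95.

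Of 11 measured dendritic cell genes linked to TSLP and type 2 responses, 7 rose with ovalbumin in A/J and 6 in C57BL/6, with medians of 0.63 and 0.40. With resiquimod 7 fell in A/J and 4 in C57BL/6, with medians of -0.50 and -0.18. The lists were written with earlier results of these data known, so their shares of called genes do not rank them. The Th2-attracting chemokine Ccl17 rose by 2.5 ± 0.23 in A/J and 2.08 ± 0.23 in C57BL/6 with ovalbumin, and its resiquimod changes were -2.30 ± 0.23 and -2.69 ± 0.23. The lectin Mgl2 rose by 1.67 ± 0.15 and 1.69 ± 0.15 and fell by 3.22 ± 0.15 and 3.62 ± 0.15, ending 1.55 and 1.92 below PBS. Ccl22 rose by 1.40 ± 0.10 and 0.53 ± 0.10 and fell by 1.54 ± 0.10 and 1.22 ± 0.10. Cd209a, a lectin of monocyte-derived dendritic cells, fell by 3.05 ± 0.21 and 2.59 ± 0.21. The ligand Pdcd1lg2 rose in C57BL/6 by 0.68 ± 0.13, from a mean of 3.08 to 3.76, close to the 25th percentile of 3.33. The transcription factor Irf4 rose in A/J by 1.33 ± 0.29 and differed by 0.05 with resiquimod. Without the arrays with squamous transcripts the list counts were 3 and 2 higher with ovalbumin and 4 and 4 lower with resiquimod. Leaving out single arrays gave 4 to 7 and 3 to 7 higher, the fewest without A/J ovalbumin 3 and without C57BL/6 PBS 1. Mgl2 also stands in the macrophage list described beside Il33.

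Of the 71 called changes named from these lists, 24 held in all settings and 32 ended when a single array was left out. Among the ovalbumin changes these were Tlr4, Il18r1, Il18rap, Il17rd, Rnf128, Il13, Il4, Calr, Irf4 and Socs3 in A/J and Il18bp, Lgals3, Pdcd1lg2 and Ccl22 in C57BL/6. Among the resiquimod changes they were Duox1, Il1r2, Il17d, Prtn3, Irak2, Il4 and Hspa1a in A/J and Nod1, Nfkbiz, Irak3, S100a8, S100a9, Camp, Calr, Cish, Socs1, Jak3 and Bcl2 in C57BL/6.

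**Figure D5:**
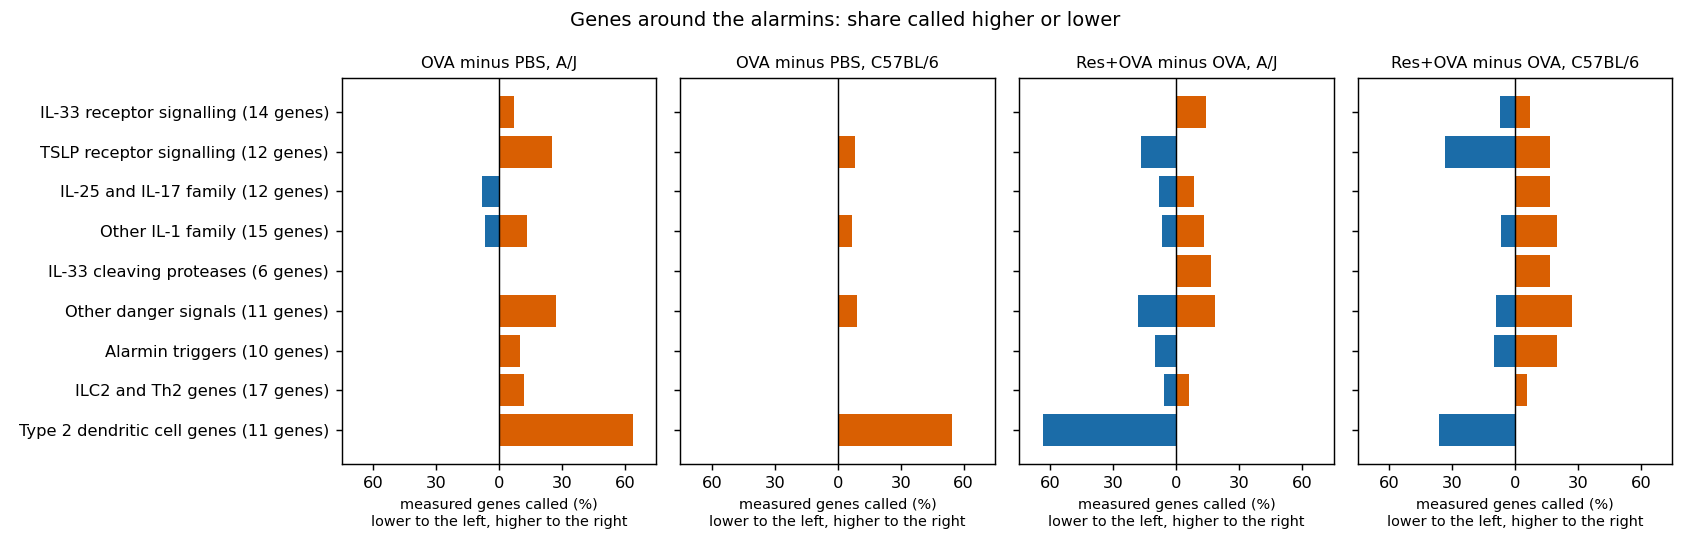
Share of the measured genes of 9 lists called higher (orange, right) or lower (blue, left) at an adjusted p under 0.05, in percent, for the ovalbumin and the resiquimod comparison of each strain. The dendritic cell list has 7 and 6 of 11 higher and 7 and 4 of 11 lower, and the IL-33 receptor signalling list has at most 2 of 14 in either direction. The lists were written with earlier results of these data known, so the shares do not rank them.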

How the data were processed

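Total RNA of whole lungs was hybridised to Affymetrix mouse expression arrays. The deposited table holds log2 values that the authors made with RMA in affy (version not given), per the submitters' processing notes. RMA quantile-normalizes arrays (medians 4.77 to 4.80). Of 45101 probe sets 64 controls were left out, and 34945 name 1 gene. All 18 columns were used, with 3 arrays per group, whose number limits precision. Arrays of a group correlated at r from 0.987 to 0.997.

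One limma model of the 6 group means (version 3.58.1, R 4.3.3, lmFit and eBayes, 12 residual degrees of freedom) gave 11 comparisons, each with Benjamini-Hochberg adjustment across 45037 probe sets. The fit was tested on 1 simulated data set with known changes. It recovered 59.7% of 72 probe sets changed by 0.5 log2, and all of the 60 changed by 1 and the 68 changed by 2. There were 17 false calls among the unchanged probe sets. Noise was drawn independently for each probe set, so differences shared by many genes of an array, such as squamous transcripts, were not simulated.

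The members, the 25 gene lists (223 of 245 entries measured) and the tests were chosen with earlier results of these data known. Named genes are the members and partner chains, up to 4 called genes with the largest change per list and main comparison, and the genes most correlated with each member. Sequences are RefSeq's (GRCm38.p6), used for 4 of the 5 measured members. Alternatives were 28 other settings, including the fit of compared groups alone, centring, another quantile normalization, a filter at the 25th percentile, gene means, array weights, eBayes with trend and robust, a replicate block and leaving out arrays.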

Additional observations from a re-analysis of the deposited data

How the results depend on the processing

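Of 1540 alternative values for 55 member results none reversed a called sign, and 37 changed the sign of a value that was not called. The counts of called members moved as follows. With ovalbumin in C57BL/6 the count of 1 became 0 in the fit of the compared groups alone and in eBayes with trend and robust (0 to 1 leaving out single arrays). With resiquimod against ovalbumin in A/J the count of 1 became 2, by Tslp, with the filter at the 25th percentile, with trend and robust, and with the squamous mean as a covariate, a setting chosen after seeing the data (1 to 2 leaving out arrays). In C57BL/6 the count of 2 became 1 without the arrays with squamous transcripts. Against PBS, the A/J count of 1 became 0 for the compared groups alone and without those arrays (0 to 1 leaving out arrays), and the C57BL/6 count of 1 became 2 for the compared groups alone and with array weights (1 to 2). Between strains with resiquimod the count of 2 became 1 for the compared groups alone, with arrays centred, quantile normalized again and without those arrays (1 to 2).

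Replicate numbers were not taken to pair the arrays, since the labels do not call them a pairing. The correlation of deviations from group means was over 0.1 in 27 of 45 same-number pairs (median 0.27) and 40 of 90 different-number pairs (median -0.21). Deviations within a group cancel out, so same-number and different-number values tend to opposite signs by construction. Best correlated with their own number were 9 of 18 arrays, some of which would be so by chance. Numbers may still share something, which was not tested. Replicate 1 held squamous transcripts in every group but C57BL/6 resiquimod, and replicate 2 in that group alone. Replicate 3 held them in A/J ovalbumin and C57BL/6 PBS. With the replicate block the members called stayed at 1, 1, 1, 2, 1, 1, 0, 0, 2, 0 and 0 in the 11 comparisons.

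Over all genes the counts moved by more than 1.5 times in some settings. For ovalbumin they ran from 79 to 1078 around 797 in A/J and from 93 to 391 around 290 in C57BL/6, and for resiquimod against ovalbumin from 342 to 2040 around 1777 and from 825 to 2163 around 1891. Against PBS they ran from 877 to 2300 around 2025 and from 790 to 3540 around 3052. Between strains they ran from 565 to 2096 around 1640 (PBS), 522 to 1802 around 1686 (ovalbumin) and 1896 to 3191 around 2994 (resiquimod), and for strain differences in effect from 0 to 18 around 11 and 5 to 432 around 225. Leaving out arrays gave 409 to 853 for ovalbumin in A/J, 165 to 319 in C57BL/6 and 83 to 357 for the strain difference in the resiquimod effect.

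With 3 arrays per group, intervals of about 0.2 to 0.4 log2 on either side limit every member in direct comparisons of groups. Strain differences in effect have wider intervals, from -0.05 to 1.00 for Il33 with ovalbumin. Il17rb, Il25 and the 3 weakest Il1rap probe sets lie too near the floor for falls to be seen.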

Other observations

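Cell type lists not described above, and the endothelial list again, moved as follows, with ovalbumin first. Of 5 measured eosinophil markers 3 rose in A/J and none was called in C57BL/6, and with resiquimod 4 fell in A/J while 1 rose and 1 fell in C57BL/6. Without the arrays with squamous transcripts 1 eosinophil marker fell with resiquimod in each strain and none was called with ovalbumin. Of 5 club cell markers 2 fell in A/J and 1 in C57BL/6, and with resiquimod 1 fell in each strain. Of 6 alveolar type I markers 1 fell in A/J, and with resiquimod 1 fell in each strain. No ciliated cell or regulatory T cell marker of the 6 measured in either list was called with ovalbumin. With resiquimod 1 ciliated cell marker rose in A/J and 1 fell in C57BL/6, and 1 regulatory T cell marker fell in C57BL/6. Of 8 endothelial markers 3 rose with resiquimod in each strain and 1 fell in A/J, where none rose without A/J resiquimod 3. Of 12 mast cell and basophil markers 1 fell with resiquimod in each strain. No squamous or skeletal muscle marker was called in these 4 comparisons, with medians of the 15 squamous markers at 0.66 and -0.95 for ovalbumin in A/J and C57BL/6.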
